A study of Mus musculus with 8 samples.

Results

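In a table of 56465 features measured in detached mouse retinas, 30493 rows carried no gene symbol. The rows described here are those without a symbol on chromosomes 1 to 19, outside the stretch of chromosome 17 with starts from 3000000 to 20000000, with a mean of at least 10 normalised reads over the 8 libraries. There were 3219 such rows. They were chosen by their mean level, so that level is given below as a description only. In the same regions 29574 rows lacked a symbol at any level, of which 10805 had a read in at least 1 library, and 15786 rows with a symbol passed the same mean of 10. Each row has an identifier (GSMG with a number), coordinates on mm10 (GRCm38) and no strand.

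The 8 libraries were 4 retinas from WT mice (replicates 3, 4, 5 and 7) and 4 from mice expressing human transferrin (TG, replicates 2, 5, 6 and 8), all C57Bl/6J. All 8 retinas had been detached by a 10 µl injection of sodium hyaluronate under the retina and were taken 4 days later, so that no undetached retina is among them. The WT group held 3 males and 1 female, the TG group 2 males and 2 females, and the ages, the promoter of the transgene and its founder line were not given in the sources used here. Libraries were made from polyadenylated RNA with a kit that keeps the strand, and the design compares TG with WT. Libraries held 61535690 to 75866423 counted reads. Rod markers summed to 3371951 to 5152075 normalised reads per library, so the labelled tissue's markers were present, while pigment epithelium markers summed to 90127 in WT 3, 40173 in TG 2 and 3604 to 19863 in the other 6. Whether any retinas shared a mouse is not in the labels, and the p-values therefore describe only how these libraries scatter, which may be technical. In bulk RNA, fewer cells of a type and less RNA per cell cannot be told apart.

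A row without a symbol can be many things. Counting annotations list pieces of known genes (long 3' untranslated ends, retained introns), noncoding RNAs that were never named, and copies of other genes. A processed pseudogene is a copy of a spliced messenger RNA that was written back into the genome, and a nuclear mitochondrial insert is a stretch of mitochondrial DNA that moved to a chromosome. Both can be so close to their source that a short read fits either place. To see which of these the rows were, each was set against GENCODE M21, a gene annotation on the same build, and the sequences of rows that are pseudogenes or short were read from its transcripts.

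Most of the reads in rows without a symbol lay in 2 neighbouring rows on chromosome 1. GSMG0043411 (chr1:24613188-24614814) and GSMG0043410 (chr1:24614879-24615568) lie inside Lmbrd1, on the minus strand, and hold nuclear copies of mitochondrial genes. The copies are shown because their sequence is what decides how their reads can be read. GSMG0043411 covers Gm10925, whose 678 bases showed 0 differences from mt-Atp6, and Gm28437, whose 783 bases showed 0 differences from mt-Co3. GSMG0043410 covers Gm28661, whose 681 bases showed 0 differences from mt-Co2. These mitochondrial genes encode a subunit of the ATP synthase (mt-Atp6) and of cytochrome c oxidase (mt-Co2 and mt-Co3). The first 90 bases of each copy follow, with the initiation codon in capitals, and each is also the start of the mitochondrial gene.
Gm28661, identical to mt-Co2: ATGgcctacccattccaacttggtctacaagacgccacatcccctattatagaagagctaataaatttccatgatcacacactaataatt
Gm10925, identical to mt-Atp6: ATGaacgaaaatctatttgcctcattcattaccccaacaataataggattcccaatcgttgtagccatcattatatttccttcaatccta
Gm28437, identical to mt-Co3: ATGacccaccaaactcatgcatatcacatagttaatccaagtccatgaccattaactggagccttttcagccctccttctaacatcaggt

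GSMG0043411 was the highest row without a symbol, with 7527246, 4425324, 5105472 and 5460280 normalised reads in WT 3, 4, 5 and 7 and 3336698, 3626121, 5427021 and 4025325 in TG 2, 5, 6 and 8. WT 3 was highest and TG 2 lowest, and the groups overlapped. Its log2 fold change (TG minus WT, on log2(value + 1)) was -0.45 ± 0.26, and it did not pass (SE; limma, adjusted p = 0.918). GSMG0043410 had 619646 to 1021837 normalised reads in WT and 711106 to 916957 in TG, with a log2 fold change of -0.08 ± 0.20 (SE). Per length, GSMG0043411 held 2991202 and GSMG0043410 1223559 normalised reads per kilobase. The row on the mitochondrial chromosome that covers mt-Co1 held 2511516 per kilobase. Of the rows on the mitochondrial chromosome with a mean of at least 1000, none covers a base of mt-Co2, mt-Atp6 or mt-Co3. From identical sequence, reads of the mitochondrial genes and of the chromosome 1 copies cannot be told apart. The neighbouring row GSMG0043412, chosen after its values were seen, overlaps Gm29216, which has 6 differences from mt-Co1 in 492 bases. All 6 lie near the start of Gm29216, outside the part that the row covers. GSMG0043412 had a mean of 447 normalised reads, and why it was low was not tested.

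The third of the highest rows was a ribosomal RNA locus. GSMG0050945 (chr17:39842997-39848829) overlaps Gm26917 and lies at a copy of the 45S ribosomal DNA unit, the source of ribosomal RNA. It had 1109607, 623934, 750534 and 315005 normalised reads in WT 3, 4, 5 and 7 and 973771, 447900, 642826 and 575046 in TG 2, 5, 6 and 8. The highest and the lowest value were both in WT, and the log2 fold change was -0.01 ± 0.34 (SE).

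Together the 3219 rows took 13.3%, 10.2%, 10.4% and 10.3% of all normalised reads in WT 3, 4, 5 and 7 and 9.23%, 8.89%, 10.3% and 9.38% in TG 2, 5, 6 and 8. The 3 rows above took 7.70% to 12.2% of all reads, and all lower rows together 1.06% ± 0.12 of reads in the WT group and 1.13% ± 0.052 in the TG group (SD over 4 libraries). WT 3 stood apart in the summed share and not in the share without those 3 rows (1.08%). Rows of the mitochondrial chromosome took 27.5% in WT 3 and 20.4% to 27.2% in the other libraries. Markers of 4 other cell types also summed highest in WT 3. Oligodendrocyte markers stood at 10311 normalised reads there against 227 to 492 in the other 7 libraries, beside the pigment epithelium sums given above. Lens markers were at 23868 against 21.1 to 19619, and blood markers at 31224 against 2218 to 30734. Their part in the summed share of WT 3 was not tested.

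**Figure D1:**
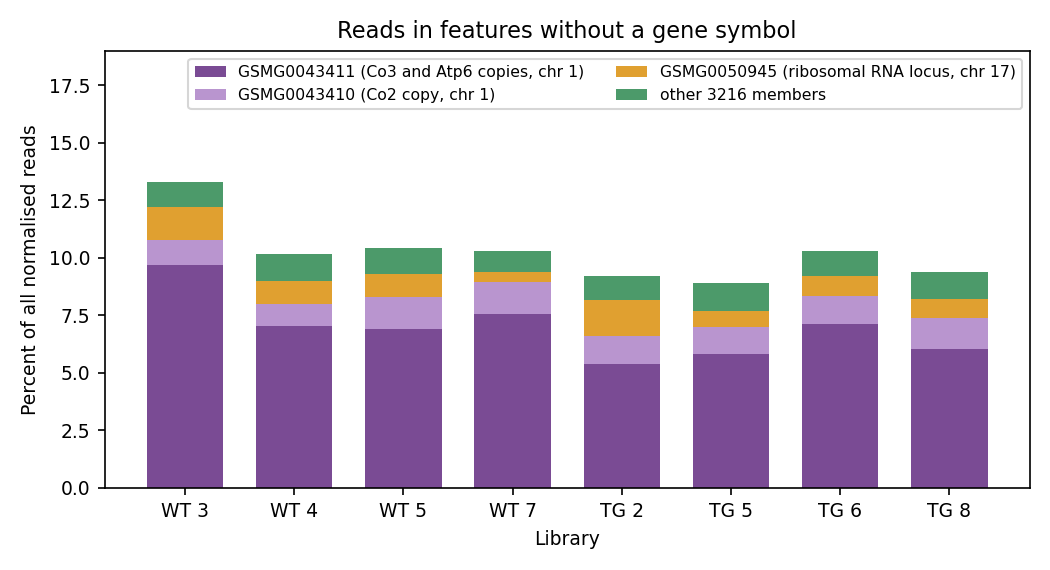
Percent of all normalised reads in rows without a gene symbol, stacked by row, for each of the 8 libraries. GSMG0043411 alone takes 5.39% to 9.69%, and the 3216 lower rows together take 0.891% to 1.19%.

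Most rows were low and short. Over all 3219, the median mean was 39.7 normalised reads (quartiles 18.3 and 125), against 424 for rows with a symbol. At least 1 read was found in all 8 libraries for 72.8% of them, against 93.0% of rows with a symbol. A mean of at least 1000 was reached by 150 rows (4.66%), the 3 above included, against 33.9% of rows with a symbol. Just inside the threshold were GSMG0033899, GSMG0011253 and GSMG0026891, each with a mean of 10.0 normalised reads and with 0 in at least 2 libraries. Just outside were GSMG0055479, GSMG0005628 and GSMG0048762, at 9.998, 9.997 and 9.996.

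The median length was 2163 bases, against 21362 for rows with a symbol, a span that includes introns. A separate group was very short. It held 91 rows of at most 31 bases, where rows with a symbol had 0. The shortest, GSMG0060007, GSMG0057393 and GSMG0057388, had 20 bases each, and the longest, GSMG0008384 at the synaptic adhesion gene Nrxn3, spanned 943053. GSMG0053349 spanned 887933 bases on chromosome 8, and GSMG0005540, over Vps53 and Ywhae, spanned 445478.

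**Figure D2:**
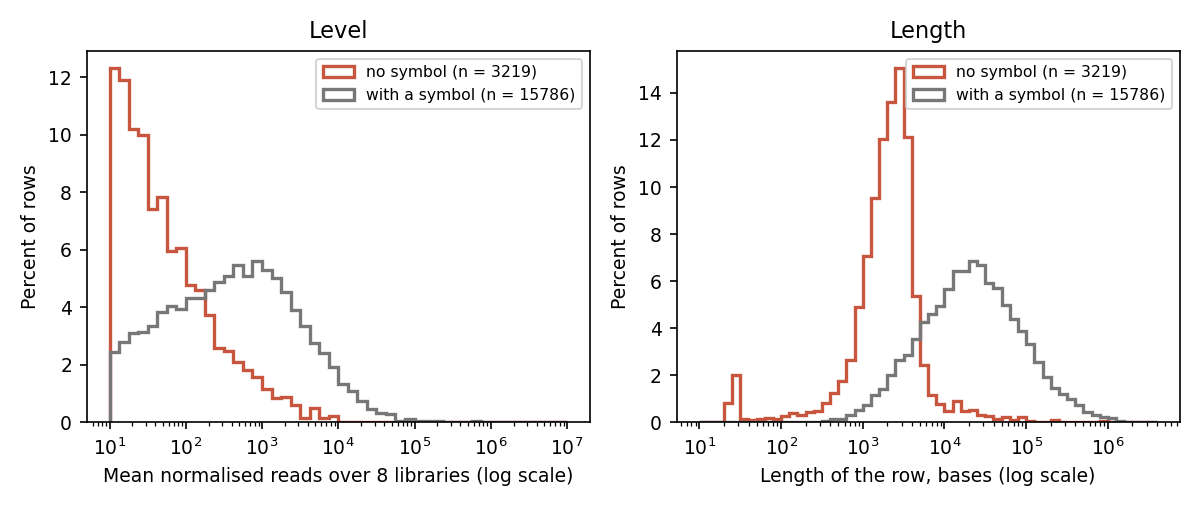
Mean normalised reads (left) and row length in bases (right), both on log axes, as percent of rows, for 3219 rows without a symbol and 15786 with one. Rows without a symbol crowd at the low end of the level axis, and a small peak of very short rows stands at the left of the length axis.

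Most of the rows lay in or close to a row with a symbol. Of the 3219, 1918 (59.6%) overlapped one and 1453 (45.1%) lay wholly inside one, while 5.73% of rows with a symbol lay wholly inside another such row. The other 1301 lay a median of 1795 bases from the nearest row with a symbol, against 4412 (4412.5) between rows with a symbol that did not overlap. Of those 1301, 515 were within 1000 bases and 56 beyond 100000. By the strand of the neighbour, 717 lay downstream of it, at a median of 2159 bases, and 536 upstream, at a median of 807. The farthest were GSMG0043380 (1164432 bases from the nearest row with a symbol, Gm39233), GSMG0043389, GSMG0058663, GSMG0015953 and GSMG0043374. Their mean levels ran from 162 to 2113 normalised reads. Of the 5, GSMG0043389, GSMG0058663 and GSMG0043374 are annotated as processed pseudogenes.

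By GENCODE, 2719 rows (84.5%) overlapped an annotated gene. By the largest exonic overlap they fell into 864 intronic rows, 500 intergenic, 456 in exons of long noncoding RNAs, 398 in 3' untranslated regions (3' UTRs) of coding genes and 350 in TEC genes, a GENCODE label for transcripts that still await an experiment. A further 203 overlapped noncoding transcripts of coding genes, 164 pseudogene exons, 139 coding sequence, 133 5' untranslated regions and 12 small RNA genes. Any exonic base sufficed for an exonic class. The median exonic share of a row was 39.6% for noncoding transcripts, 20.9% for coding sequence and 18.3% for 5' untranslated regions. It was 5.67% for small RNA genes, 67.7% for long noncoding RNAs and 100% for 3' UTR, TEC and pseudogene rows. Pseudogenes had the highest median level, 165 normalised reads, followed by 3' UTR rows (135). Intronic rows had the lowest (23.4).

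Most pseudogene rows repeated sequence of another gene, and very short rows did so in part. A sequence could be read for 160 of the 164 pseudogene rows, and 154 of those shared a run of 20 bases with a transcript of another gene. For 91 the whole row could be read, and 74 of the 91 occurred whole, with no difference, in a transcript of a coding gene. For the other rows a stretch in 1 exon was read. Of 81 rows of at most 31 bases, 46 occurred whole in a coding transcript and 34 shared no run of 20 bases with any other gene. The rows below are shown because their few letters are all that the table counts. Where no letter is in capitals, the row has no difference from the coding gene named. That gene is not always the only match, as GSMG0060007 occurs whole in 4 coding genes and GSMG0054969 in 2.
GSMG0055862, 29 bases in Gpx4-ps2, identical to Gpx4: tgtacagcaagatctgtgtaaatggggac
GSMG0054969, 22 bases in Gm1821, identical to Ubb: tgaagaccctgaccggcaagac
GSMG0060006, 46 bases in Rps23-ps1, identical to Rps23: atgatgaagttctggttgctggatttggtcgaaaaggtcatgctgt
GSMG0057826, 26 bases in Gm10263, identical to Rps28: tccgaaatgtcaaaggccccgttcga
GSMG0060007, 20 bases in Gm10054, identical to Rps23: atcaggaagtgcgtcagggt
GSMG0010172, 80 bases in Rps3a3, with 1 difference from Rps3a1 in capitals: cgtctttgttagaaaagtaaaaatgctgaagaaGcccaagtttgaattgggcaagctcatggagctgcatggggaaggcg
GSMG0043374, 79 bases in Gm1840, with 1 difference from Gpi1 in capitals: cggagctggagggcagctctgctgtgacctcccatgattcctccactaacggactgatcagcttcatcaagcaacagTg
Counted from 1 at the 5' end of the row, with the base of the coding gene first, the difference is A34G in GSMG0010172 and C78T in GSMG0043374. GSMG0054969, GSMG0060006, GSMG0057826 and GSMG0010172 were chosen after their values were seen.

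After the mitochondrial copies, the fullest pseudogene rows were those that follow. GSMG0036555 (chr7:114705473-114705845) is a 373-base stretch of Gm15500 that occurs whole in Rpl5, a protein of the large ribosomal subunit. It had 45826, 34907, 39969 and 33052 normalised reads in WT 3, 4, 5 and 7 and 23195, 36958, 40751 and 33518 in TG 2, 5, 6 and 8, while the row named Rpl5 had a mean of 4298. TG 2 was the lowest library in both rows, and the groups overlapped in both. The log2 fold changes were -0.21 ± 0.18 for the copy and -0.17 ± 0.17 for Rpl5 (SE). GSMG0053278 (chr6:122457228-122457407), in Gm8430, was read over 147 of its 180 bases, which occur whole in Rps27a. That gene encodes ubiquitin fused to a small-subunit ribosomal protein. GSMG0053278 had 14997 to 23148 normalised reads in WT and 11990 to 21555 in TG, against a mean of 6185 for the Rps27a row.

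GSMG0055862 (chr10:45875637-45875665), the 29 bases identical to Gpx4, had 13005, 8489, 9485 and 9312 normalised reads in WT 3, 4, 5 and 7 and 5812, 8660, 8992 and 7759 in TG 2, 5, 6 and 8. Gpx4 encodes the peroxidase that reduces lipid peroxides, and its own row had a mean of 33422. The groups overlapped for this copy, and its log2 fold change was -0.37 ± 0.17 beside -0.35 ± 0.16 for the Gpx4 row (SE). The copy did not pass (limma, adjusted p = 0.918). GSMG0030151 and GSMG0053261, both in Gm15459 on chromosome 5, match the chaperone gene Hspa8, the first whole and the second in 92.7% of its 20-base runs. They had log2 fold changes of 0.15 ± 0.16 and -0.02 ± 0.17 (SE), against 0.16 ± 0.16 for the Hspa8 row. GSMG0043295, in Gm12715, occurs whole in Actg1, a cytoplasmic actin, with a log2 fold change of -0.07 ± 0.14. GSMG0027930 (chr4:69922521-69926244) overlaps Gm11223, which matches the tubulin-binding gene Stmn1 in 95.4% of its 20-base runs. It had 7491 to 10451 normalised reads in WT and 8819 to 13311 in TG (log2 fold change 0.32 ± 0.15, SE), and the groups overlapped.

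Over the 73 pseudogene rows found whole in a coding gene whose own row was tested, 42 had a change of the same sign as that gene, with medians of -0.004 for the copies and -0.016 for the coding genes. In 4 of the 73 the row without a symbol held more reads than the coding gene. The handling of reads that fit several places is one of the steps not given in the sources used here. By the bases inside the rows alone, these rows and their coding genes cannot be told apart. Sequence beyond the row ends, into which a read can run, was not compared.

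A further set was the far end of coding genes. Of 398 rows in 3' UTRs, 243 overlapped no row with a symbol. For 218 of the 243 (89.7%) the nearest row with a symbol was the row of the same gene, and 209 of the 218 lay downstream of it, at a median gap over the 218 of 1144 bases. Of these 218 rows, 92 had a higher mean than the row that carries the name, and 30 had more than 10 times as many reads. The rows without a symbol had to reach a mean of 10 and the named rows did not, which can raise both counts. The median mean of the 218 rows was 203 normalised reads against 425 for the named rows.

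GSMG0024231 (chr3:37405312-37410106), at the 3' UTR of Fgf2, was the highest of all 3' UTR rows. Fgf2 encodes a growth factor known to protect photoreceptors, and this row also overlaps Nudt6, which is transcribed from the opposite strand. The row had 9833, 7945, 10359 and 5387 normalised reads in WT 3, 4, 5 and 7 and 8292, 19815, 8088 and 3471 in TG 2, 5, 6 and 8. TG 5 and TG 8 were the highest and the lowest of all libraries, and the log2 fold change was 0.02 ± 0.39 (SE), which turned to -0.40 without TG 5 and -0.18 without WT 7. The row with the symbol Fgf2 had a mean of 151 normalised reads and a log2 fold change of -0.19 ± 0.62 (SE). The Nudt6 row had a mean of 1076 and a log2 fold change of -0.16 ± 0.38 (SE). Since the rows carry no strand, reads of Fgf2 and Nudt6 in GSMG0024231 cannot be told apart.

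The next genes were chosen after their values were seen, from among the fuller downstream rows. GSMG0019534 (chr19:23167111-23168119) at Klf9, a transcription factor that responds to hormones, had 4003 to 8012 normalised reads in WT and 3935 to 6385 in TG, against a mean of 3624 for the Klf9 row. GSMG0001993, downstream of the phosphatase gene Ptpn4, had a mean of 4268 against 261 for the named row. GSMG0009191, downstream of the forkhead gene Foxn3, had a mean of 2437 against 14.8. GSMG0034669, downstream of the lipase gene Abhd2, had a mean of 2669 against 80.2. Among the 210 pairs in which both rows were tested, 117 had the same sign.

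**Figure D3:**
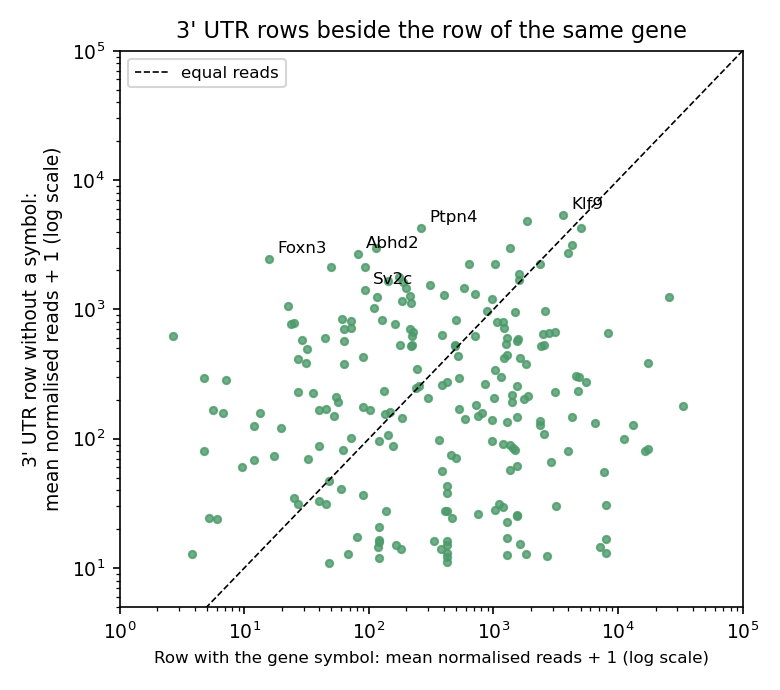
Mean normalised reads + 1 of 218 rows without a symbol in 3' UTRs against the nearest row of the same gene, both axes on a log scale. Points above the dashed line, 92 of the 218, hold more reads than the row with the symbol, among them Foxn3, Abhd2 and Ptpn4.

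Noncoding RNAs made up the next group. Among exact matches of a row's span with a GENCODE gene, 239 in all, 174 were TEC genes, 29 long intergenic noncoding RNAs and 14 antisense RNAs. GSMG0031618 (chr6:30172891-30175113) is Rncr4, a retinal noncoding RNA that overlaps Mirc35hg, a host gene of a miRNA cluster. It had 9184, 7984, 6415 and 8845 normalised reads in WT 3, 4, 5 and 7 and 10764, 6067, 12087 and 8317 in TG 2, 5, 6 and 8. The 2 highest and the lowest value were all in TG, and the log2 fold change was 0.16 ± 0.20 (SE). GSMG0027257 (chr4:136639582-136642068), the TEC gene Gm37583, had 4081 to 5130 normalised reads in WT and 4534 to 9001 in TG. It was chosen after its values were seen, and with a log2 fold change of 0.42 ± 0.19 (SE) it missed the threshold (limma, adjusted p = 0.918). The fullest intergenic row, GSMG0024029 (chr2:181141306-181147371), lay 322 bases downstream of Eef1a2, a neuronal elongation factor, with a mean of 6052. It too was chosen after its values were seen.

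A few rows were named for the retinal gene they touch. Neurod1, a transcription regulator of the retina, shares a named row with its neighbour Cerkl, a ceramide kinase-like gene. That row overlaps GSMG0021282 (203 to 378 in WT and 182 to 408 in TG) and GSMG0023035, both of which GENCODE places in Cerkl. Pax6, a master regulator of eye development, held GSMG0023281, with 36.8 to 100 in WT and 42.0 to 142 in TG. Rows at marker genes of ON bipolar cells were GSMG0010246 (152 bases upstream of Isl1), GSMG0007555 and GSMG0007557 (both in Prkca), with means of 15.99, 14.0 and 12.6. GSMG0047952 overlaps the glycine transporter gene Slc6a9 (25.3 to 34.8 in WT and 23.5 to 46.1 in TG), and GSMG0016634 overlaps the myelin gene Mog (11.05 to 27.5 and 0 to 14.1). With a TG mean of 3.97, GSMG0016634 passed the minimum mean only through WT. GSMG0018094 overlaps Aqp4, the water channel gene of Mueller glia, with 21.1 to 61.4 in WT and 28.2 to 33.7 in TG. The groups overlapped in all of these rows.

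No row without a symbol differed between TG and WT by limma. Of 3219 rows, 0 were higher and 0 lower at an adjusted p under 0.05, where 2 of all 19798 features tested passed (0.0101%, with 0.00505% in each direction). At an unadjusted p under 0.05 there were 100 rows (3.11%), 31 higher and 69 lower, against 4.64% of all features (2.02% higher and 2.62% lower). That count moved when single libraries were left out. It was 171 without WT 7 (149 lower) and 159 without TG 5 (119 lower), and the lower rows were 39 of 79 without WT 3 and 45 of 69 without WT 4. The share of all features under that unadjusted p was not counted without those libraries. The WT and TG values did not overlap in 67 rows (2.08%), 23 with TG above and 44 with TG below, against 2.53% of all features (1.36% above and 1.16% below). edgeR on the recovered reads called 0 rows (0.0101% of all features, 0.00505% in each direction), with 93 at an unadjusted p under 0.05 (4.12% of all features). DESeq2 on the same reads called 3 rows (0.0932%), all lower in TG, against 0.0808% of all features (0.0455% higher and 0.0354% lower). Its unadjusted p was under 0.05 in 121 rows, against 5.34% of all features. The median log2 fold change was -0.07 for these rows and -0.02 for all features, and 44.8% lay above 0 against 47.8%. The median of these rows turned to 0.0087 without WT 3 (50.7% above 0), and was -0.012 without TG 2, -0.10 without TG 6 and -0.22 without WT 7 (34.7% above 0). The precision was lower than for the table as a whole, with a median standard error of 0.65 against 0.30. With sex beside genotype in limma, 0 of these rows differed between males and females, against 0.0303% of all features.

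The 3 rows called by DESeq2 were lower in TG. GSMG0036082 (chr7:67246457-67250256), in an intron of Lysmd4, had 34.8, 64.4, 19.02 and 35.1 normalised reads in WT 3, 4, 5 and 7, 1.77 in TG 2 and 0 in TG 5, 6 and 8. The groups did not overlap, and the log2 fold change was -4.80 ± 1.08 (SE; adjusted p = 0.918 with limma and 0.0063 with DESeq2). The row named Lysmd4 stood at -0.01 ± 0.15 (SE). GSMG0040613 (chr9:40354749-40357936), in an intron of Gramd1b, had 22.5, 125, 12.7 and 15.6 in WT 3, 4, 5 and 7, 3.52 in TG 5 and 0 in the other TG libraries. WT 4 was far above the rest of its group, and the log2 fold change was -4.30 ± 1.22 (SE; adjusted p = 0.918 with limma and 0.0331 with DESeq2), beside -0.16 ± 0.22 for the Gramd1b row. Both fold changes rest on values near 0 and move with the pseudocount. GSMG0036082 and GSMG0040613 passed the mean of 10 only through WT, with TG means of 0.44 and 0.88. Their place among the rows is therefore not independent of the difference. GSMG0060364 (chr8:20550317-20554550), an intergenic row that overlaps Gm40469, had 118, 132, 189 and 66.3 in WT 3, 4, 5 and 7 and 12.4, 46.7, 12.3 and 9.76 in TG 2, 5, 6 and 8. Every WT value was above every TG value (log2 fold change -2.78 ± 0.57, SE; adjusted p = 0.88 with limma and 0.0165 with DESeq2).

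Further rows with the smallest p on the lower side were not called by limma, edgeR or DESeq2. GSMG0009093, in an intron of the chromatin gene Dpf3, had 85.6 to 162 in WT and 14.8 to 55.8 in TG, beside a log2 fold change of -0.65 ± 0.15 (SE) for the Dpf3 row. GSMG0037626, in an intron of the G protein subunit gene Gnao1, had 31.2 to 255.8 in WT and 5.85 to 52.8 in TG, and the groups overlapped. GSMG0023989, at the zinc finger gene Gm14418, had 489 to 782 in WT and 232 to 438 in TG. GSMG0001460, the antisense RNA Gm38336 at Arhgef4, had 3.90 to 43.0 in WT, with 1.77 in TG 2 and 0 in the other TG libraries. With a TG mean of 0.44, GSMG0001460 passed the minimum mean only through WT. Its place among the rows is therefore not independent of the difference. GSMG0039373, downstream of Vwa5a, and GSMG0008457, upstream of the lysosomal protease gene Lgmn, had 164 to 478 and 89.8 to 132 in WT and 103 to 151 and 12.3 to 70.9 in TG.

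On the higher side none of the 10 passed with limma, edgeR or DESeq2. GSMG0020530 (chr19:54044151-54046886), at the 5' end of the adrenergic receptor gene Adra2a, had 0, 9.21, 10.6 and 9.75 in WT 3, 4, 5 and 7 and 28.4, 24.7, 42.0 and 68.3 in TG 2, 5, 6 and 8. Every TG value was above every WT value (log2 fold change 2.70 ± 0.93, SE; limma adjusted p = 0.918), while the Adra2a row stood at 0.12 ± 0.19. GSMG0036046, at the imprinted gene Ndn, had 1.95 to 12.9 in WT and 23.0 to 44.5 in TG. GSMG0022553, the long noncoding RNA Gm13553 near Lhx3, had 14.3 to 42.9 in WT and 45.8 to 56.8 in TG 2, 5 and 6, with 238 in TG 8. GSMG0040928, in an intron of Ankdd1a, had 0 to 16.9 in WT and 19.5 to 56.6 in TG. With WT means of 7.38, 7.34 and 7.99, GSMG0020530, GSMG0036046 and GSMG0040928 passed the mean of 10 only through TG. In the rows that follow the groups overlapped. GSMG0010982, downstream of the synaptic vesicle gene Sv2c, had 808 to 1373 in WT and 1231 to 2202 in TG, and GSMG0020386, downstream of the axon guidance gene Slit1, had 168 to 355 and 305 to 609. GSMG0026201, at the 3' UTR of St6galnac5, had 147 to 360 and 355 to 473. GSMG0011336, in an intron of Arf4os, had 48.7 to 152 in WT and 146 to 232 in TG, and GSMG0043298, the pseudogene Gm4735, had 94.2 to 409 and 323 to 519.

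**Figure D4:**
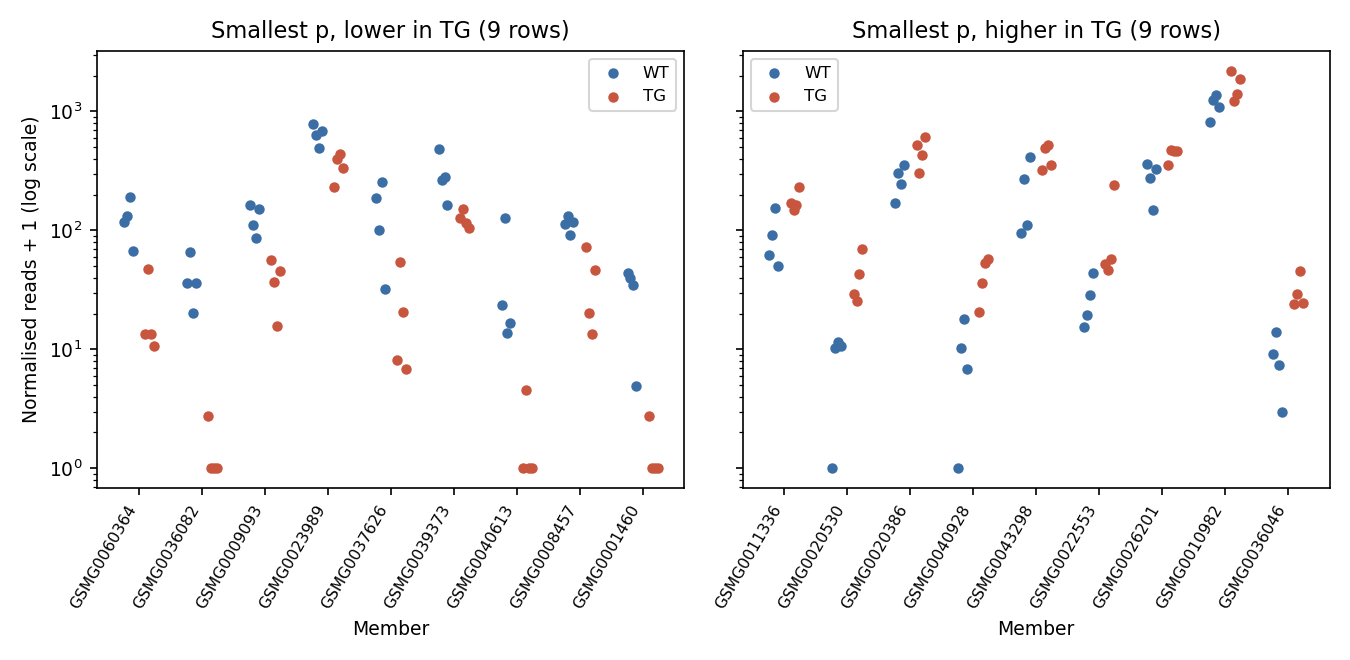
Normalised reads + 1 (log axis) in each of the 4 WT and 4 TG libraries for 9 of the 10 rows without a symbol with the smallest p on each side. None passed with limma, and GSMG0060364, GSMG0036082 and GSMG0040613 on the left were called by DESeq2.

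Of the 864 intronic rows, 574 had a negative log2 fold change (TG minus WT) and limma called none. The class median was -0.29, beside -0.07 over all rows without a symbol, and the difference between the classes was not tested. DESeq2 called 2 of the 864. With limma at an unadjusted p under 0.05 there were 35 lower and 2 higher, 4.28% of the class against 4.64% of all features. By direction, 518 of all 19798 features were lower (2.62%) and 400 higher (2.02%). The class thus leaned to the lower side more than all features did, and this lean was not tested. The lower rows numbered 70 without WT 7, 62 without TG 5, 21 without WT 3 (with 7 higher) and 16 without WT 4 (with 5 higher). For these fits too, the share of all features was not counted. The median over the class was 34.8, 33.1, 28.0 and 13.6 normalised reads in WT 3, 4, 5 and 7 and 15.96, 23.3, 24.7 and 20.5 in TG 2, 5, 6 and 8. WT 7, the WT library from a left eye and from a female, was the lowest of all 8, and the groups overlapped. The median log2 fold change of the class ran from -0.62 without WT 7 to -0.18 without TG 2 or WT 3. The named rows that host these introns had a median of -0.13 over the 776 tested. Among the 15 highest rows 3 were intronic. GSMG0060365 (chr8:20581118-20582582), in an intron of the pseudogene Gm21092, had 5970 to 9687 normalised reads in WT and 6213 to 10216 in TG. GSMG0017933, in an intron of the amino acid transport gene Slc3a1, had 5503 to 8383 and 7018 to 8920, against a mean of 35.0 for the Slc3a1 row. GSMG0031631, in an intron of the coatomer gene Copg2, had 4535 to 9569 and 5341 to 10296. In all 3 the groups overlapped. In the 3' UTR class the medians were 102 to 152 in WT and 117 to 147 in TG, and in the pseudogene class 160 to 168 and 148 to 190. WT 7 was also the lowest in the TEC, long noncoding, intergenic and 3' UTR classes. No measure of RNA quality is in the files used here.

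**Figure D5:**
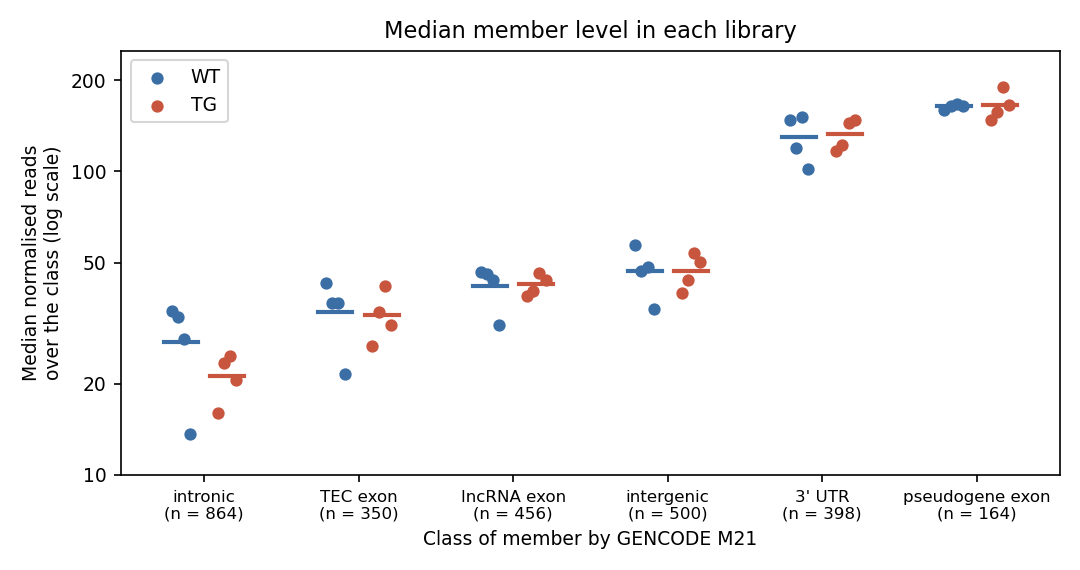
Median normalised reads over each class of rows (log axis) in each library, with the group mean as a bar. WT 7 is the lowest point in the intronic, TEC, long noncoding, intergenic and 3' UTR classes and not in the pseudogene class.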

How the data were processed

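RNA of 8 mouse retinas was sequenced from polyadenylated, strand-marking libraries, per the labels' protocols. The deposited values are a signal, read counts that the authors had divided by a size factor for each library. DESeq2 appears in the submitters' processing notes, as do STAR 2.4.0, SAMtools, Picard and FastQC. The counting step (tool, strand, reads that fit several places, annotation release) is among the points not given in the sources used here. All values (100%) of each column lay within 0.01 of whole multiples of 1 step, from which reads were recovered. No 2 libraries were near-copies (lowest chi-square per feature 45.4).

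TG was tested against WT in R 4.3.3 by limma 3.58.1 with a trended prior variance on log2(value + 1), two-sided, for all 19798 features with a mean of at least 10, with Benjamini-Hochberg adjustment over all of them and a threshold of 0.05. A fold change on log2(value + 1) understates the change of low rows. edgeR 4.0.16 and DESeq2 1.42.0 on recovered reads were alternatives, as were other scalings, pseudocounts, filters, terms for sex or eye, males only, no variance trend and leaving out each library. Leaving out WT 3 and TG 6 together, and the share without its 3 highest rows, were added after the data were seen. The limma fit was tested on simulated data, and edgeR and DESeq2 were not.

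Distances are between row spans, 0 where they overlap. Classes come from GENCODE M21 (GRCm38), and sequences from its transcripts, read in 215 of the rows that are pseudogenes or at most 200 bases long. Both strands of other genes' transcripts were searched for runs of 20 bases.

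The rows and lists were chosen with earlier results of these data known. Rows are named by a rule: the 15 highest means, the 10 smallest p per direction and any called row, the 3 just inside and outside the mean of 10, the 3 longest and 3 shortest, the 5 farthest from a row with a symbol, and up to 3 per list of cell type genes by highest mean. Results for 5 rows are not reported here.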

Additional observations from a re-analysis of the deposited data

Results flagged for a closer look

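In groups of 4 libraries, a value was singled out where its gap to the nearest other value took up nearly all of the group's range (Dixon's test at 95%). Chance singles out about 1 in 20 groups where values are normally distributed. Here 72 groups were looked at, with 9 values singled out. Many of the rows had been picked by their p, so that rate cannot be set against this count. WT 3 had 13.29% of its reads in rows without a symbol, where the other WT libraries had 10.17% to 10.4%. Among rows with the smallest p, TG 2 had 354.6 normalised reads in GSMG0026201 (463.4 to 472.9 in the other TG libraries), TG 5 had 46.67 in GSMG0060364 (9.755 to 12.41) and TG 8 had 238 in GSMG0022553 (45.79 to 56.81). WT 3 had 0 in GSMG0020530 (9.206 to 10.57 in the other WT libraries), and WT 4 had 125.2 in GSMG0040613 (12.68 to 22.52). A single library above 0 in its group was TG 5 in GSMG0040613 (3.522), TG 2 in GSMG0036082 (1.773) and TG 2 in GSMG0001460 (1.773). In such a group the gap is the whole range at any value, so the value is always singled out.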

How the results depend on the processing

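No alternative called a row without a symbol higher in TG. Rows called lower were 3 with DESeq2, 1 with males only and 1 without TG 6 (0 to 1 without any 1 library), and 0 in the other alternatives. Over all features the count was 2, and 16 with DESeq2, 4 with males only, 1 with a minimum mean of 50, no filter, no variance trend, a pseudocount of 0.5 or sex as a term, and 1 to 3 without any 1 library. Of 687 values for 33 named rows, 28 in 8 rows changed sign, none of these past the threshold. GSMG0050945 turned to 0.26 without WT 3 and TG 6 together, 0.048 with eye, 0.16 with sex and 0.042 with upper-quartile scaling (-0.34 to 0.26 without any 1 library). GSMG0030151 turned to -0.0060 and GSMG0031631 to -0.030 without WT 3 and TG 6 together, and GSMG0031631 to -0.026 with males only (-0.073 to 0.30 without any 1 library). GSMG0053261 turned to 0.10 with males only and 0.031 with upper-quartile scaling (-0.14 to 0.11). GSMG0060365 turned to -0.030 without WT 3 and TG 6 together and -0.22 with males only (-0.070 to 0.17), and GSMG0043295 to 0.050 with males only (-0.18 to 0.026). GSMG0024231 ran from -0.40 to 0.44 and GSMG0043410 from -0.23 to 0.010 without any 1 library. At an unadjusted p under 0.05 there were 203 rows with males only (199 lower, 91 of them intronic), 165 with no variance trend and 41 of 1396 with a minimum mean of 50 (7 intronic rows lower and 1 higher), against 100. All features were not counted at that unadjusted p in these settings. The median log2 fold change of the rows was -0.25 with males only, -0.023 with upper-quartile scaling, -0.028 with sex, -0.0053 with eye, -0.026 without WT 3 and TG 6 together and -0.0020 with a minimum mean of 50, against -0.07. That of intronic rows was -0.61 with males only, -0.19 with eye and -0.15 with a minimum mean of 50. The cause was not tested. The share of rows that overlap a row with a symbol was 57.1% when only those with a mean of at least 10 counted and 47.8% for rows with a mean of at least 50, and the median distance was 2126 (2125.5) and 2004 bases. The summed share was 11.04% in WT and 9.45% in TG, 14.8% and 12.1% of reads outside the mitochondrial rows, 1.06% and 1.13% without the 3 highest rows, and 10.3% to 11.3% (WT) and 9.17% to 9.64% (TG) without any 1 library. The overlap on the same strand was not run, since the table gives no strand. No paired analysis was possible because the groups share only the number 5.

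Depth limits most of these rows. With a median mean of 39.7 reads and 4 libraries a group, the median standard error was 0.65 on the log2 scale, and rows near 0 move with the pseudocount. Reads that lie wholly in identical copies, and reads of overlapping rows and opposite strands, cannot be told apart.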

Other observations

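GSMG0043318 (chr5:95861155-95861802), which overlaps the processed pseudogene Gm5559 of Gapdh, ran from 0 to 5638 normalised reads between libraries of the WT group. It had 445, 5638, 0 and 5470 normalised reads in WT 3, 4, 5 and 7 and 2179, 159, 2643 and 3099 in TG 2, 5, 6 and 8. The Gapdh row, the glycolysis enzyme, held 135251 to 191693 in WT and 145879 to 232907 in TG. The row's log2 fold change was 1.92 ± 2.09 (SE), and it was chosen after its values were seen.

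Of the 3219 rows, 7 overlapped a miRNA hairpin in RefSeq, among them GSMG0051382 at Mir874 (mean 784) and GSMG0012037 at Mir5124b (mean 391). Rows without a symbol were unevenly spread, with 28.2 per 100 expressed rows with a symbol on chromosome 12 and 15.4 on chromosome 11.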
